A study of Mus musculus with 10 samples.

Results

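Of 10 libraries from mouse epididymal fat pads, 5 carried a high level of Crisp1, a secretory protein gene of the epididymis, and are described here as the epididymal RNA-rich libraries. The level was the Crisp1 count over the column total, scaled to CPM, and a library with at least 500 CPM was called rich. Knockout libraries 2 and 3 and control libraries 2, 3 and 6 were rich. Knockout libraries 4, 5 and 6 and control libraries 4 and 5 were poor. The rich library nearest the threshold was knockout library 2 at 936 CPM, and the poor library nearest it was knockout library 5 at 188 CPM.

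The samples were epididymal white adipose tissue of C57BL/6 mice, 5 with a knockout of the succinate receptor gene Sucnr1 restricted to adipocytes (Ad-Sucnr1 KO) and 5 controls with floxed alleles (Sucnr1fl/fl). The study asked how loss of this receptor changes gene expression in the fat pad. The labels give no Cre line, age, diet, dissection record or pooling, and they do not say how the numbers 2 to 6 in the sample names were given. Total RNA libraries held 24182798 to 30603326 counts each, and 16446 of 26040 listed genes had enough counts to be tested.

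The epididymis is the coiled duct in which sperm mature, and in mice its fat pad lies directly against it. Its principal cells secrete proteins in a segment-specific order from the initial segment through caput and corpus to the cauda, which leads into the muscular vas deferens. Clear cells acidify the lumen, and basal cells line the base of the epithelium. Lipocalins, beta-defensins, cysteine-rich secretory proteins and protease inhibitors make up much of the secretion.

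Because Crisp1 chose the libraries, differences of genes and lists between rich and poor libraries are given as values, without tests. Counts of called genes are given as background, and no support is drawn from either. Crisp1 (chromosome 17, 40293758 to 40319207, minus strand, mm10) encodes a cysteine-rich secretory protein that binds maturing sperm. Lcn5 (chromosome 2, 25657952 to 25661977, plus strand) encodes a retinoid-binding lipocalin of the epididymis. Akr1b7 (chromosome 6, 34412334 to 34423142, plus strand) encodes an aldo-keto reductase known in mice as the vas deferens protein. These 3 genes set the libraries apart in 3 different ways, so the 250 bases before their RefSeq starts are shown, on GRCm38.p6 and on the gene's own strand. The gene spans above are GENCODE's, and the RefSeq start of Akr1b7, 34412362, lies 28 bases inside its GENCODE span, so the last bases of that window are within the gene by GENCODE.

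Crisp1 chr17:40319208-40319457 (minus strand): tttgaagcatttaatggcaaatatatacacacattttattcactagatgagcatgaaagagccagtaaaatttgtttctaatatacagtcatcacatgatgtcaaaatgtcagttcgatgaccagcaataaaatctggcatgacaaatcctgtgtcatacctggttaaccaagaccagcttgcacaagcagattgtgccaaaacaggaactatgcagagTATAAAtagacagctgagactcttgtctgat
Lcn5 chr2:25657702-25657951 (plus strand): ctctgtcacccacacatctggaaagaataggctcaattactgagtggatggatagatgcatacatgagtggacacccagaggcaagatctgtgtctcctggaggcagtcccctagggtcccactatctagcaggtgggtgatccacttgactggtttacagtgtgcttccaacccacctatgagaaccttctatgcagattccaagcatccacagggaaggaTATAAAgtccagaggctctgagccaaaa
Akr1b7 chr6:34412112-34412361 (plus strand): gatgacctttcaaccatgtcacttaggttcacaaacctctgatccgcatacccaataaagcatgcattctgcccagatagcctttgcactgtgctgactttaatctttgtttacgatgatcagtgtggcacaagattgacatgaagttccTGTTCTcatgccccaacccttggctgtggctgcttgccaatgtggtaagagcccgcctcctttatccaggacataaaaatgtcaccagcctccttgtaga

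Capitals mark TATAAA, the TATA box core, and AGAACA, a core of steroid hormone response elements, each searched on both strands (TTTATA and TGTTCT on the other). TATAAA began 31 bases before the RefSeq start of Crisp1 and 28 bases before that of Lcn5, and was not found in the Akr1b7 window. TGTTCT began 100 bases before the RefSeq start of Akr1b7, and neither strand of AGAACA was found in the other 2 windows. Among 32851 promoter windows of the same length, 12.4% held TATAAA and 16.1% held AGAACA, counting both strands.

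Crisp1 measured 936 and 3653 CPM in the rich knockout libraries 2 and 3, with 1072, 2920 and 8996 CPM in the rich control libraries 2, 3 and 6. Among poor libraries, the values were 1.2, 188 and 9.87 CPM for knockout libraries 4, 5 and 6 and 18.1 and 136 CPM for control libraries 4 and 5. The rich range therefore ran from 936 to 8996 CPM and the poor range from 1.2 to 188 CPM.

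Lcn5, the second marker, went with Crisp1 in 4 of the 5 rich libraries. It measured 95.5 and 599 CPM in the rich knockout libraries 2 and 3, with 242, 0.496 and 2157 CPM in the rich control libraries 2, 3 and 6. The poor knockout libraries 4, 5 and 6 reached 0.0333, 1.92 and 16.8 CPM, and the poor control libraries 4 and 5 reached 0.137 and 2.72 CPM. Control library 3 was thus rich by Crisp1 but lay below 3 poor libraries by Lcn5, and knockout library 6 was poor by Crisp1 but had more Lcn5 counts than Crisp1 counts. The rule set the class of every library by Crisp1. By Lcn5, knockout library 6 also lay below the 4 rich libraries at 95.5 CPM or more. Control library 3 lay below them too. It was above every poor library for Spink8, Defb42 and Serpina1f, though not for Adam7, as described below. The number of genes whose values do not overlap between the classes is also given without these 2 libraries. Counts within lists include both.

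**Figure D1:**
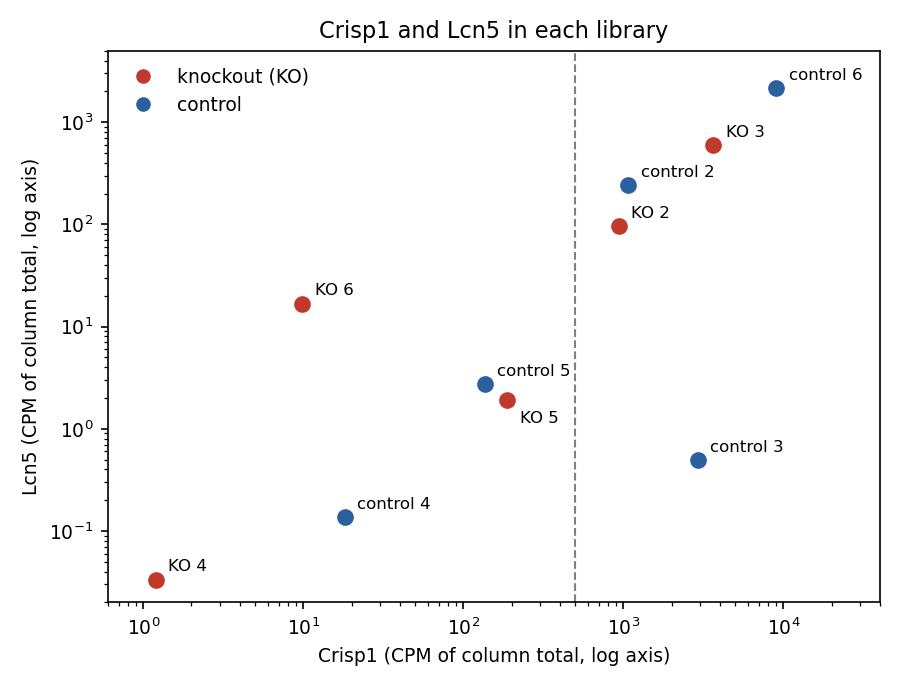
Crisp1 (horizontal, CPM of the column total, log axis) against Lcn5 (vertical, same unit, log axis) in each library, with the 500 CPM threshold as a dashed line. The 4 rich libraries at the upper right have 95.5 to 2157 CPM of Lcn5, whereas control library 3 lies at 0.496 CPM and knockout library 6, left of the line, at 16.8 CPM.

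Over all genes, the fit of class and genotype together called 0 genes higher and 0 lower in the rich libraries at an adjusted p under 0.05 (edgeR quasi-likelihood test, Benjamini-Hochberg adjustment; 0% in each direction). At an unadjusted p under 0.05 the same fit counted 1690 genes higher (10.3%) and 1175 lower (7.14%). The smallest adjusted p was 0.0515, and 191 genes lay under 0.06. DESeq2 called 896 genes higher (5.45%) and 291 lower (1.77%). As Crisp1 chose the classes, these counts are background for the lists and nothing is read from them.

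A plainer description is the number of genes whose rich and poor values did not overlap. In 891 genes (5.42% of those tested) every rich library lay above every poor one, and in 82 genes (0.499%) every rich library lay below. With library sizes scaled by TMM in place of column totals, the counts were 691 higher and 215 lower. Without control library 3 and knockout library 6 they were 1523 and 347. Because the threshold called no gene, the genes named below from this comparison were chosen after their values were seen. The median log2 fold change of all tested genes was -0.02.

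The 891 genes took 2.81 and 4.83% of all counts in knockout libraries 2 and 3 and 3.17, 4.91 and 8.35% in control libraries 2, 3 and 6. In the poor libraries they took 2.07, 2.23 and 2.12% in knockout libraries 4, 5 and 6 and 2.17 and 2.18% in control libraries 4 and 5. The genes were selected as higher in every rich library, so a higher share in each is given by their choice. Control library 6 was the highest rich library for 739 of the 891 genes. Control library 3 was highest for 133, and the other 3 rich libraries together for the rest. Knockout library 2 was the lowest rich library for 544. In bulk tissue, fewer cells of a type and less RNA per cell cannot be told apart.

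Of 41 listed genes of epididymal secretion, all had counts and 37 had a higher median in the rich than in the poor libraries. In 6 of them, Crisp1 included, the classes did not overlap. For Crisp1 the choice of libraries fixed this. Of all tested genes, which leave out those of low count, 5.42% were higher without overlap. Only 21 of the list passed the filter on low counts, 5 of them without overlap, and a gene could pass through the rich libraries alone. All 21 had a fold change above 0 (46.9% of all tested genes did), from which nothing is read. The summed level measured 2213 and 9255 CPM in the rich knockout libraries 2 and 3, with 2883, 3588 and 25330 CPM in the rich control libraries 2, 3 and 6. Knockout libraries 4, 5 and 6, all poor, had 3.67, 389 and 71.8 CPM, and the poor control libraries 4 and 5 had 47.1 and 324 CPM. Control library 6 was highest for 29 of the 41 genes. Crisp1 itself makes up much of these sums. The other 40 listed genes summed to 1277 and 5601 CPM in the rich knockout libraries 2 and 3, with 1811, 668 and 16340 CPM in the rich control libraries 2, 3 and 6. The poor libraries had a median of 61.9 CPM and all lay below the rich ones. Without Crisp1, control library 3 was the lowest rich library, and most of its sum came from Spink8 and Defb42, described below. In control library 3, 32 of the 41 listed genes stood under 1 CPM, and 22 of these had no count. The listed genes of the caput summed to 0.62 CPM there, against 0.567 to 39.3 CPM in the poor libraries.

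Spink8, a Kazal-type protease inhibitor, did not overlap between the classes. It measured 262 and 1100 CPM in the rich knockout libraries 2 and 3, with 329, 530 and 2871 CPM in the rich control libraries 2, 3 and 6, against 0.167 to 56.3 CPM in the poor libraries (log2 fold change rich minus poor 5.20, SE 1.38). Defb42, a beta-defensin, measured 21.3 and 109 CPM in the rich knockout libraries 2 and 3, with 57.3, 108 and 335 CPM in the rich control libraries 2, 3 and 6, against 0.200 to 4.13 CPM in the poor libraries (log2 fold change 5.73, SE 0.91). Serpina1f, an epididymal member of the serpin family outside the list, measured 104 and 460 CPM in the rich knockout libraries 2 and 3, with 216, 657 and 1167 CPM in the rich control libraries 2, 3 and 6, against 0.200 to 12.8 CPM in the poor libraries (log2 fold change 6.10, SE 1.08). For all 3 genes control library 3 had less than control library 6 and more than control library 2, as for Crisp1.

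A different group of secretory genes was close to 0 in control library 3. Adam7, a membrane protein of the caput that is passed to sperm, measured 208 and 1005 CPM in the rich knockout libraries 2 and 3, with 282, 0.124 and 3242 CPM in the rich control libraries 2, 3 and 6. Among poor libraries, the values were 0.533, 37.1 and 7.87 CPM for knockout libraries 4, 5 and 6 and 11.1 and 20.6 CPM for control libraries 4 and 5. Every poor library thus had more Adam7 than control library 3.

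Rnase9, Defb22 and Gpx5 had no count in control library 3, which allows up to 0.124 CPM (3 counts; this covers counting error only). Gpx5, a secreted glutathione peroxidase of the caput, reached 7.19 and 2.52 CPM in the rich knockout libraries 2 and 3, with 121 and 67.4 CPM in the rich control libraries 2 and 6, and had no count in any poor library. Its highest rich library was therefore control library 2, not control library 6. Across the table, 26 genes stood at 10 CPM or more in the other 4 rich libraries and under 1 CPM in control library 3. They included Spint4, a Kunitz-type inhibitor, which reached 165 and 290 CPM in the rich knockout libraries 2 and 3, with 134 and 344 CPM in control libraries 2 and 6 but 0.0413 CPM in control library 3.

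Ratios within a library show how alike the rich libraries were, since gene length cancels when 1 ratio is compared between libraries. Adam7 counts came to 22.2 and 27.5% of the Crisp1 counts in knockout libraries 2 and 3, and to 26.3, 0.00425 and 36.0% in control libraries 2, 3 and 6. Spink8 counts came to 28.0 and 30.1% in knockout libraries 2 and 3, and to 30.6, 18.2 and 31.9% in control libraries 2, 3 and 6. The poor knockout library 5 and control library 5 had Adam7 at 19.8 and 15.1% and Spink8 at 26.8 and 41.4%. Defb28, a beta-defensin, came to 6.62, 7.40, 5.67 and 7.95% in knockout libraries 2 and 3 and control libraries 2 and 6, and to 6.89, 6.95, 5.86 and 7.82% in knockout libraries 5 and 6 and control libraries 4 and 5. In control library 3 it came to 0.193%. Other ratios were lower in knockout library 5 and control library 5. Lcn5 came to 10.2, 16.4, 22.5 and 24.0% in knockout libraries 2 and 3 and control libraries 2 and 6, against 1.02 and 2.002% in knockout library 5 and control library 5. Serpina1f came to 11.1, 12.6, 20.2, 22.5 and 13.0% in knockout libraries 2 and 3 and control libraries 2, 3 and 6, against 5.35 and 9.41% in knockout library 5 and control library 5. Knockout library 6 and control library 4 had few Defb28 counts, 21 and 31.

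Knockout library 6 had some ratios above those of the other poor libraries. Its Lcn5 counts came to 170% of Crisp1 counts. Adam7 came to 79.8%, Rnase9, a ribonuclease-like secretory protein, to 65.9% and Spink8 to 81.5%. Adam7 was also high in knockout library 4 and control library 4, at 44.4 and 61.25%. Defb22 and Defb28 of knockout library 6, at 9.60 and 6.95%, lay within the range of the other poor libraries. The ratios of knockout library 6 rest on 302 Crisp1 counts, where knockout library 4 had 36.

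Among listed genes of the initial segment and, for Lcn9, the caput, a few of low level were highest in knockout library 2. Lcn8 and Lcn9, lipocalins clustered with Lcn5, stood at 7.63 and 3.81 CPM there and at most at 0.773 and 0.109 CPM elsewhere. Adam28 stood at 3.34 CPM in knockout library 2 and at most at 0.184 CPM elsewhere, and Cst11, an epididymal cystatin, at 1.25 and at most 0.103 CPM. Ros1, a receptor tyrosine kinase needed for the initial segment to differentiate in mice, did not follow them. It measured 8.54 and 31.9 CPM in the rich knockout libraries 2 and 3, with 13.7, 3.89 and 87.4 CPM in the rich control libraries 2, 3 and 6, against 0 to 0.850 CPM in the poor libraries (log2 fold change 6.49, SE 1.23).

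**Figure D2:**
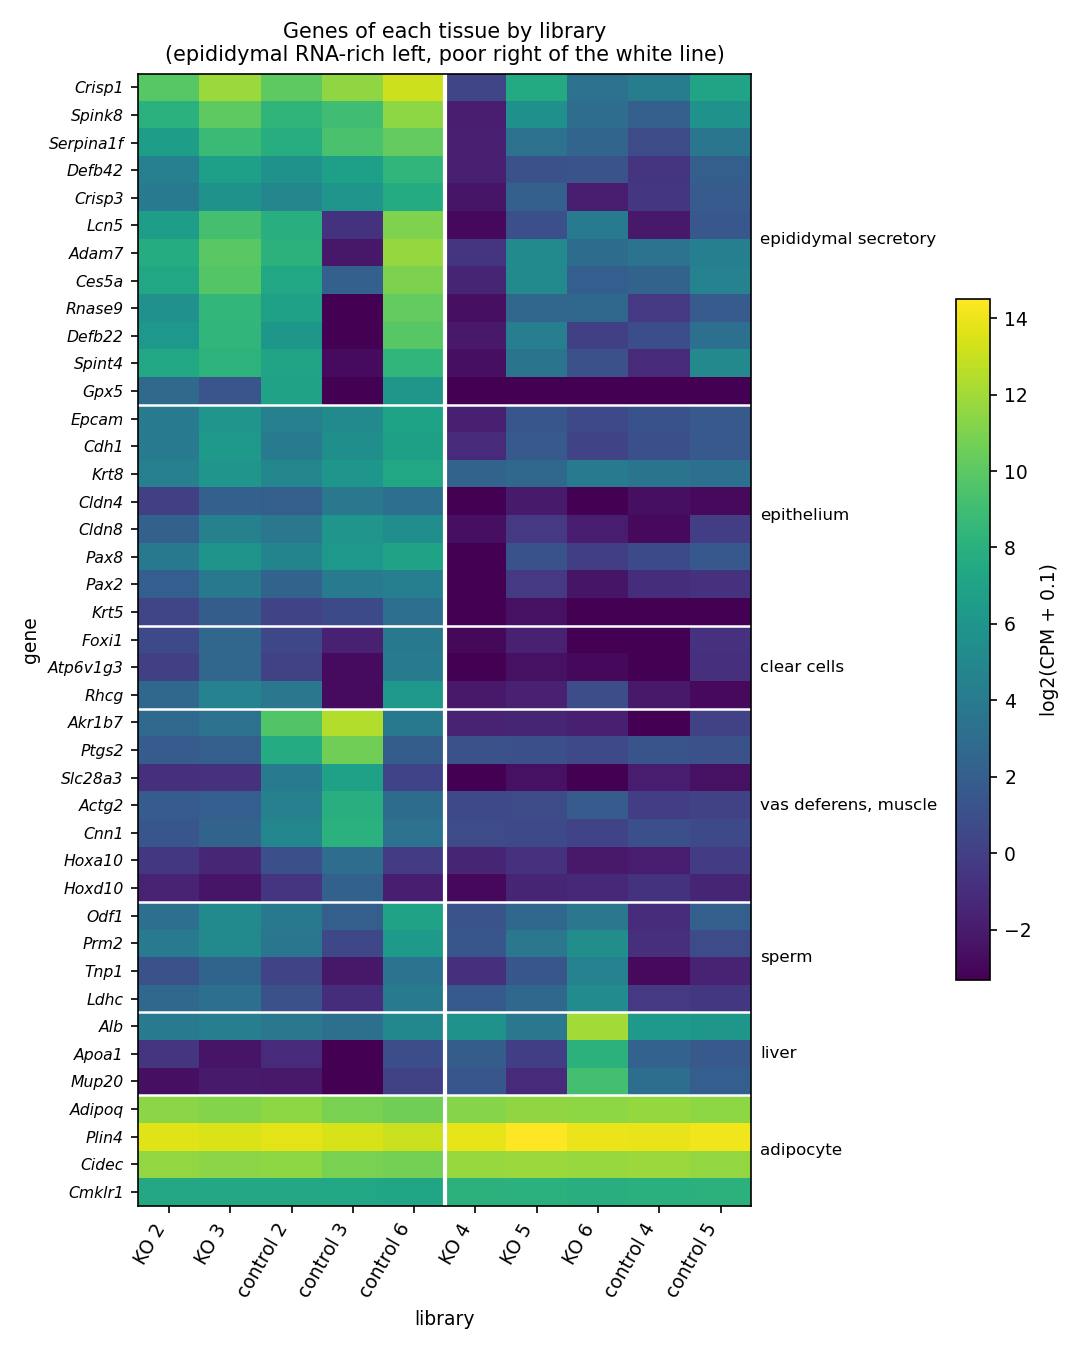
Level of 41 genes in the 10 libraries as log2(CPM + 0.1), grouped by tissue or cell type, with the 5 rich libraries left of the white line and the 5 poor libraries right of it. Control library 3 is dark for Lcn5, Adam7, Rnase9, Defb22 and Spint4 and bright for Akr1b7 (5491 CPM) and Actg2 (235 CPM), and knockout library 6 alone is bright for Alb (4160 CPM).

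Of 20 listed genes of simple epithelium, 17 did not overlap, against 5.42% of all tested genes, and 19 had a fold change above 0. Their summed level measured 299 and 1042 CPM in the rich knockout libraries 2 and 3, with 380, 621 and 2308 CPM in the rich control libraries 2, 3 and 6. The poor knockout libraries 4, 5 and 6 reached 55.9, 112 and 108 CPM, and the poor control libraries 4 and 5 reached 103 and 107 CPM. All 20 genes stood at or above 1 CPM in control library 3.

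Epcam, a surface protein of epithelial cells, measured 15.2 and 61.5 CPM in the rich knockout libraries 2 and 3, with 21.4, 36.8 and 132 CPM in the rich control libraries 2, 3 and 6, against 0.200 to 3.06 CPM in the poor libraries (log2 fold change 4.61, SE 0.76). Cdh1, the E-cadherin of adherens junctions, had a log2 fold change of 4.67 (SE 0.75). Cldn4, a tight junction claudin, measured 0.945 and 4.30 CPM in the rich knockout libraries 2 and 3, with 4.17, 14.2 and 8.90 CPM in the rich control libraries 2, 3 and 6, against 0 to 0.145 CPM in the poor libraries. Cldn8, another claudin, was likewise highest in control library 3 at 61.3 CPM, above the 42.4 CPM of control library 6.

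The exceptions were Krt7, Krt19 and Grhl1. Grhl1, a grainyhead transcription factor, had a log2 fold change of -0.01 (SE 0.17). Krt19, a keratin, measured 12.15 and 14.7 CPM in the rich knockout libraries 2 and 3, with 19.1, 67.7 and 21.9 CPM in the rich control libraries 2, 3 and 6, against 8.05 to 14.2 CPM in the poor libraries, so knockout library 2 lay inside the poor range. Krt19 is also a marker of mesothelium, which covers the fat pad.

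Of the 13 listed transcription factors of the urogenital tract, 9 had a higher median in the rich libraries and 5 did not overlap (5.42% of all tested genes). Pax8 and Pax2, paired box factors that pattern the urogenital tract, did not overlap between the classes. Pax8 measured 14.8 and 59.7 CPM in the rich knockout libraries 2 and 3, with 25.8, 73.2 and 124 CPM in the rich control libraries 2, 3 and 6, against 0 to 2.83 CPM in the poor libraries (log2 fold change 5.08, SE 0.83). Emx2, a homeobox factor, also separated the classes, with a log2 fold change of 3.18 (SE 0.44).

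Distal Hox genes were higher in 1 library. Hoxa10 and Hoxa11, which pattern the distal tract, stood at 8.23 and 4.18 CPM in control library 3. In the other 9 libraries they stood at most at 1.89 and 0.585 CPM, both in control library 2. Hoxd10 and Hoxd11 stood at 4.59 and 3.76 CPM in control library 3 and at most at 0.585 and 0.379 CPM elsewhere.

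Foxi1, the transcription factor that directs clear cells, measured 1.45 and 5.88 CPM in the rich knockout libraries 2 and 3, with 1.34, 0.207 and 14.9 CPM in the rich control libraries 2, 3 and 6, against 0 to 0.484 CPM in the poor libraries. Rhcg, an ammonia channel, measured 6.08 and 23.4 CPM in the rich knockout libraries 2 and 3, with 13.0, 0.0413 and 71.3 CPM in the rich control libraries 2, 3 and 6, against 0.0373 to 1.80 CPM in the poor libraries. Control library 3 lay inside the poor range for both, and 0 of the 12 listed genes of clear cells and the proton pump separated the classes, a count too small to set apart from the 5.42% of all tested genes. Slc4a1 and Kit, which blood cells also use, had log2 fold changes of -0.36 (SE 0.19) and 0.06 (SE 0.15).

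Of 9 genes of basal epithelium with counts, 7 had a higher median in the rich libraries. In 2, the keratins Krt5 and Krt15, the classes did not overlap (5.42% of all tested genes were higher without overlap). Only 7 passed the filter on low counts, and a gene could pass through the rich libraries alone. Of these, 6 had a fold change above 0 (46.9% of all tested genes did), from which nothing is read. Krt5 measured 1.22 and 3.67 CPM in the rich knockout libraries 2 and 3, with 1.14, 1.49 and 8.79 CPM in the rich control libraries 2, 3 and 6. Among the poor libraries only knockout library 5 had any count of Krt5, at 0.0724 CPM. Krt15 was low as well (log2 fold change 5.41, SE 1.08). Trp63, the basal cell transcription factor, overlapped, at 5.03 to 24.0 CPM in the rich and 1.64 to 9.08 CPM in the poor libraries. Dst, a cytoskeletal linker that many other cells express, was the tested member with a fold change below 0 (log2 fold change -0.49, SE 0.17). It made up most of the list sum, which was 1822 to 3007 CPM in the rich and 2433 to 3419 CPM in the poor libraries. Without Dst the sum was 23.2 to 103 CPM in the rich and 14.6 to 23.6 CPM in the poor libraries.

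Genes of fluid and ion transport were split. Slc26a3, a chloride and bicarbonate exchanger, and Clcn5, an endosomal chloride transporter, separated the classes (log2 fold changes 3.24, SE 0.87, and 1.41, SE 0.52). Aqp9, a water and glycerol channel of principal cells, measured 11.8 and 48.2 CPM in the rich knockout libraries 2 and 3, with 25.7, 61.8 and 118 CPM in the rich control libraries 2, 3 and 6, against 3.80 to 23.2 CPM in the poor libraries. Its highest poor library was knockout library 6, which among poor libraries was also highest in summed liver genes and in Lcn5. Aqp9 is a liver channel as well, and the source of its counts there was not tested. Cftr, the chloride channel, had a log2 fold change of 0.17 (SE 0.34).

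Chaperones of the endoplasmic reticulum, which fold secreted proteins, were highest in control library 6 for 17 of 19 listed genes. Canx, the lectin chaperone calnexin, was the 1 gene of 19 whose classes did not overlap, a share near the 5.42% of all tested genes. It stood at 399 to 1031 CPM in the rich and 346 to 374 CPM in the poor libraries (log2 fold change 0.65, SE 0.24). Hspa5, the lumenal chaperone BiP, stood at 968 CPM in control library 6, while the other rich libraries had 268 to 417 CPM and the poor libraries 216 to 341 CPM. Xbp1, the transcription factor that induces such chaperones, had a log2 fold change of -0.22 (SE 0.14).

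Akr1b7 had the largest fold change of any tested gene (log2 fold change 9.78, SE 2.52), and it rested on 2 libraries. It measured 6.85 and 10.3 CPM in the rich knockout libraries 2 and 3, with 826, 5491 and 14.6 CPM in the rich control libraries 2, 3 and 6. Knockout libraries 4, 5 and 6, all poor, had 0.233, 0.254 and 0.196 CPM, and the poor control libraries 4 and 5 had 0 and 0.969 CPM. Every rich library was above every poor one, but control libraries 2 and 3 lay far above the rest.

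Ptgs2, a prostaglandin synthase expressed in vas deferens epithelium, and Slc28a3, a nucleoside transporter, were high in the same 2 libraries. Ptgs2 counts came to 196 and 1621 CPM in control libraries 2 and 3, to 3.54 to 4.09 CPM in the other rich libraries and to 1.41 to 2.36 CPM in the poor libraries. Slc28a3 stood at 16.0 and 117 CPM in control libraries 2 and 3 and at most at 1.104 CPM elsewhere. Defb1, the remaining gene of the vas deferens list, went the other way. It was highest in control library 6 and stood under 1 CPM in control library 3.

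Smooth muscle genes were high in control library 3, which was the highest library for 13 of 15. Actg2, the gamma actin of visceral muscle, measured 3.48 and 3.88 CPM in the rich knockout libraries 2 and 3, with 21.9, 235 and 7.84 CPM in the rich control libraries 2, 3 and 6, against 0.822 to 3.40 CPM in the poor libraries. Cnn1, the muscle protein calponin, was highest in control library 3 at 264 CPM, with 28.3 CPM in control library 2, and 2.67 to 10.05 CPM in the other rich libraries and 1.08 to 1.92 CPM in the poor libraries. The median log2 fold change of the tested members was 1.03; it was 0.30 without control library 3 and -0.51 when the libraries were split by Lcn5 at 50 CPM. Across all genes, 10 stood at least 10-fold above every other library in control library 3, at 10 CPM or more.

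Seminal vesicle genes were seen in 1 rich and 1 poor library and did not go with the classes. The 11 listed genes summed to 125 CPM in knockout library 4 and 152 CPM in control library 3, and to 0.784 to 7.51 CPM in the other 8 libraries. Knockout library 4 was the library lowest in Crisp1.

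**Figure D3:**
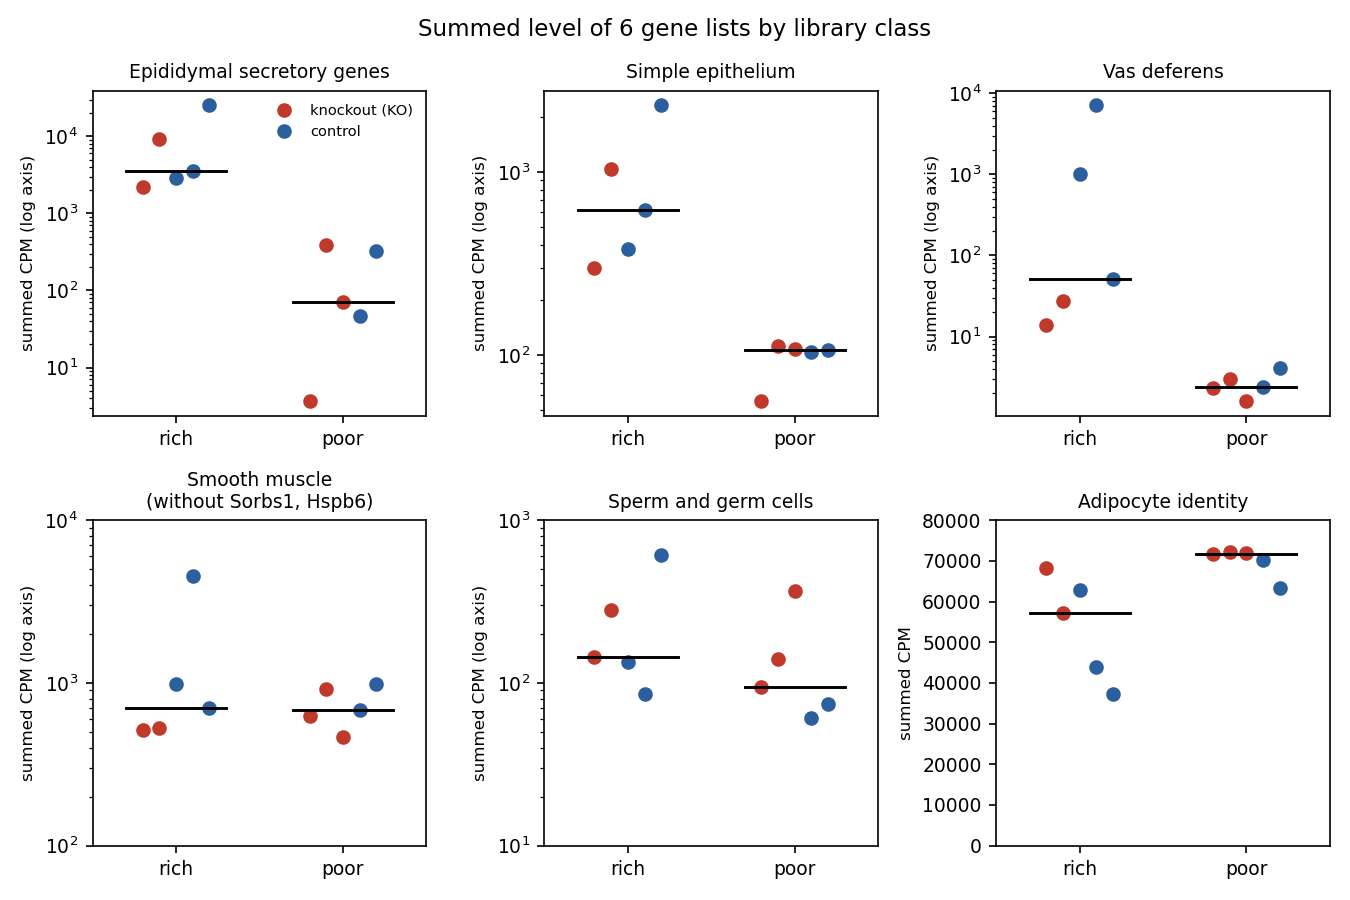
Summed CPM of 6 gene lists in the rich (left) and poor (right) libraries, 1 point per library (knockout red, control blue) with the median as a line; 5 panels have a log axis and the adipocyte panel starts at 0. The classes do not overlap for the secretory, epithelial and vas deferens lists, overlap for smooth muscle and sperm, and overlap for adipocyte identity, where control libraries 3 and 6 are lowest at 43870 and 37270 CPM.

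Sperm transcripts were found in both classes. Of 20 listed germ cell genes with counts, 19 had a higher median in the rich libraries. Control library 6 was highest for 11 and knockout library 6 for 9. The median log2 fold change of the tested members was 1.21, and 0.18 without control library 6. The classes were separated by 0 of the 20, a count too small to set apart from the 5.42% of all tested genes. Odf1, of the sperm tail, measured 9.18 and 37.7 CPM in the rich knockout libraries 2 and 3, with 14.9, 4.09 and 122 CPM in the rich control libraries 2, 3 and 6, against 0.377 to 13.6 CPM in the poor libraries. Tnp1, a transition protein of late spermatids, and Ldhc, a lactate dehydrogenase of meiotic and later germ cells, were highest in the poor knockout library 6 at 23.3 and 38.3 CPM. In control library 6 they stood at 11 and 15.2 CPM.

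Markers of the testicular somatic cells were low. Hsd3b1 and Insl3, of Leydig cells, stood at most at 3.46 and 0.724 CPM. Cyp17a1, a steroid 17-hydroxylase, was the exception and measured 9.79 and 36.0 CPM in the rich knockout libraries 2 and 3, with 7.99, 0.0413 and 100 CPM in the rich control libraries 2, 3 and 6, against 0.233 to 2.39 CPM in the poor libraries. It was thus high in the same 4 rich libraries as Lcn5 and close to 0 in control library 3.

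Genes lower in every rich library without overlap were fewer than those higher, and their differences were smaller, apart from liver genes. By the sign of the fold change alone, 53.1% of all tested genes were lower. The median log2 fold change of the 82 non-overlapping genes was -0.50, and 18 of them were more than 2-fold lower. Liver genes lay at the far end: Mup7, a major urinary protein, stood at 130 CPM in knockout library 6, at 0.398 to 5.31 CPM in the other poor libraries and at 0 to 0.294 CPM in the rich libraries. Alb, the albumin gene, stood at 4160 CPM in knockout library 6 and at 14.3 to 80.2 CPM in the other poor libraries, against 9.34 to 31.1 CPM in the rich libraries. All 38 genes that were more than 16-fold lower had their highest value in knockout library 6. The Mup and Serpina1 genes have near-identical copies, so the split of reads among them is uncertain.

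Cmklr1, the receptor for the adipokine chemerin, was lower in every rich library. It measured 176 and 172 CPM in the rich knockout libraries 2 and 3, with 176, 167 and 148 CPM in the rich control libraries 2, 3 and 6. Among poor libraries, the values were 277, 272 and 243 CPM for knockout libraries 4, 5 and 6 and 254 and 281 CPM for control libraries 4 and 5. The means were 168 ± 12 CPM in the rich and 266 ± 16 CPM in the poor libraries (SD, n = 5 each; log2 fold change -0.72, SE 0.09). The classes did not overlap.

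Of 20 adipocyte identity genes, 20 had a fold change below 0, where 53.1% of all tested genes did, and 2 did not overlap, where 0.499% of all tested genes did so in this direction. Their median log2 fold change was -0.34. Plin4, a lipid droplet coat protein, averaged 11520 ± 1969 CPM in the rich and 17320 ± 3430 CPM in the poor libraries (SD, n = 5 each). Cidec, which promotes fusion of lipid droplets, averaged 2456 ± 580 CPM in the rich and 3429 ± 165 CPM in the poor libraries. Adipoq, the adiponectin gene, overlapped, at 1591 to 2872 CPM in the rich and 2400 to 3326 CPM in the poor libraries.

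The adipocyte identity genes together measured 68260 and 57320 CPM in the rich knockout libraries 2 and 3, with 62770, 43870 and 37270 CPM in the rich control libraries 2, 3 and 6. Knockout libraries 4, 5 and 6, all poor, had 71750, 72290 and 71910 CPM, and the poor control libraries 4 and 5 had 70230 and 63380 CPM. Control libraries 3 and 6 were lowest, knockout library 2 lay inside the poor range, and the classes overlapped. The part that the added epididymal counts have in these lower values was not tested.

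**Figure D4:**
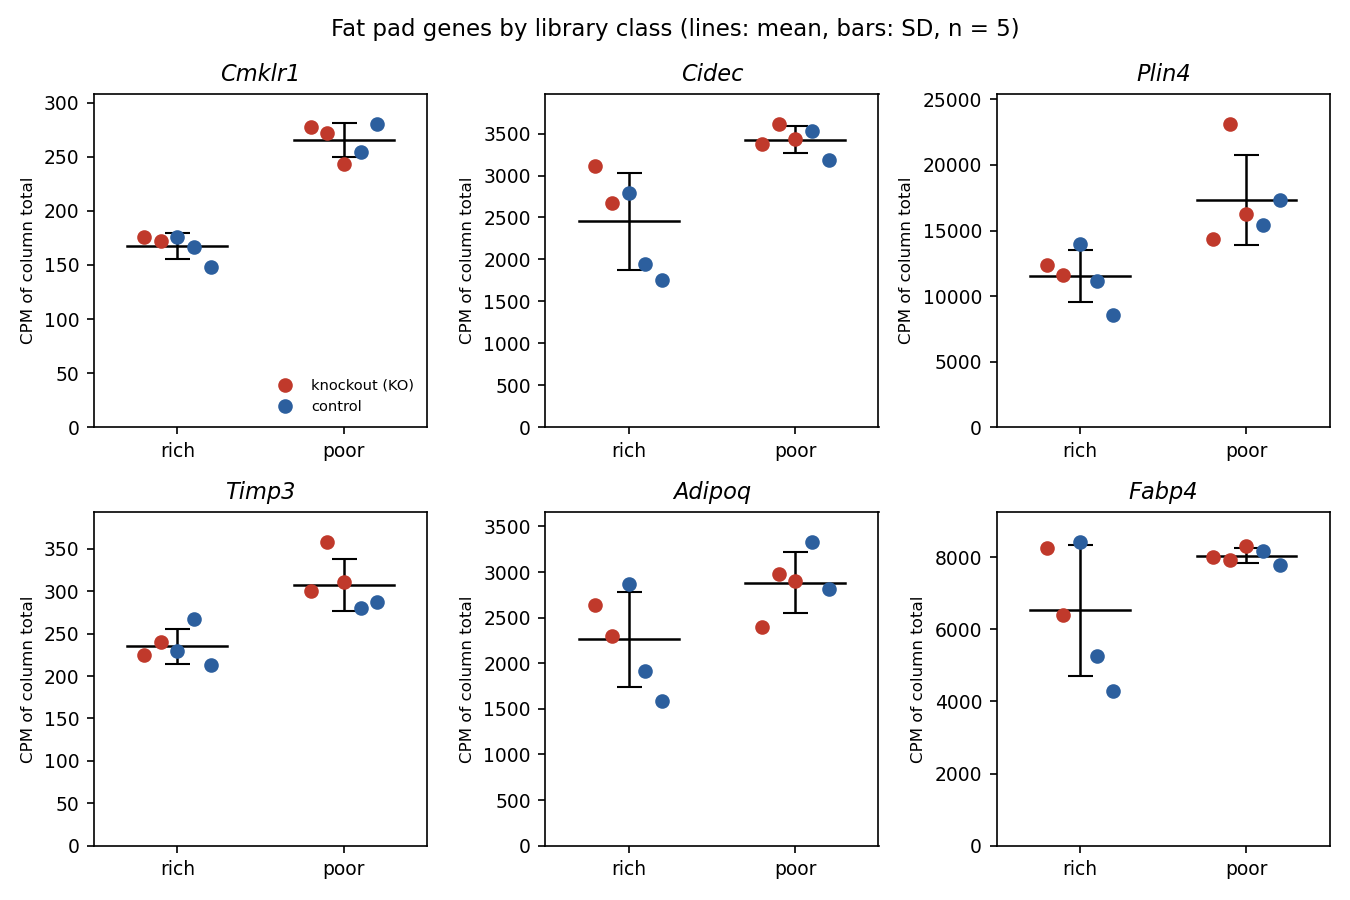
CPM of 6 genes of the fat pad in the rich (left) and poor (right) libraries, 1 point per library (knockout red, control blue) with mean and SD (n = 5) and axes from 0. Cmklr1, Cidec, Plin4 and Timp3 do not overlap, whereas Adipoq and Fabp4 do.

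All 20 endothelial genes had a fold change below 0 (53.1% of all tested genes did) with a median of -0.36, and 0 separated the classes (0.499% of all tested genes were lower without overlap). With the Crisp1 threshold at 100 CPM the median was -0.05 and 15 of the 20 lay below 0. Gpihbp1, which anchors lipoprotein lipase to capillaries, stood at 55.4 to 78.6 CPM in the rich and 74.7 to 99.2 CPM in the poor libraries (log2 fold change -0.58, SE 0.11). Control library 5 was highest for 19 of the 20 endothelial genes. Of 20 macrophage genes 19 had a fold change below 0 (median -0.19), of 20 progenitor and fibroblast genes 17 (median -0.23), and of 12 mesothelial genes 6 (median -0.01). The rich control library 3 was nevertheless the highest library for 12 of these macrophage genes, 8 of the progenitor and fibroblast genes and 7 of the mesothelial genes.

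Of 18 T and NK cell genes 15 had a fold change below 0 (median -0.36), and of 13 B and plasma cell genes 10 did (median -0.14). Of all tested genes 53.1% did. The T and NK median was 0.13 with the Crisp1 threshold at 100 CPM, and the B and plasma cell median was 0.09 without knockout library 6. Of 14 B and plasma cell genes with counts, 11 had a higher median in the rich libraries, so their direction depended on the measure. Knockout library 6 was the highest library for 6 of the 14. Clock genes (median -0.08), genes of fatty acid and triglyceride synthesis (-0.19) and genes of the citrate cycle and succinate (-0.11) had 0 non-overlapping genes each. Over all tested genes 5.42% were higher and 0.499% lower without overlap. With 19, 20 and 24 genes, the counts of 0 are too small to set apart from these shares.

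Outside the lists, Timp3, an inhibitor of metalloproteinases, averaged 235 ± 21 CPM in the rich and 308 ± 30 CPM in the poor libraries (SD, n = 5 each). Aspn, a small proteoglycan of the matrix, averaged 21.9 ± 3.4 CPM in the rich and 33.0 ± 3.7 CPM in the poor libraries. Both separated the classes.

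The genotypes were spread over both classes, with 2 knockout and 3 control libraries rich and 3 knockout and 2 control libraries poor. The summed secretory level was compared between genotypes, which the choice of libraries did not use. The mean of its log2 CPM, from TMM-scaled library sizes, was 8.22 in knockout and 10.34 in control libraries (5 each), a difference of -2.12 (exact two-sided permutation test, p = 0.421; the smallest p that 5 against 5 allows is 0.00794). Leaving out 1 library gave -3.35 (without knockout library 3) to -0.56 (without knockout library 4), with -1.07 without control library 6, and the list without Crisp1 gave -1.73 (exact permutation p = 0.484). The summed level of adipocyte identity genes averaged 16.08 in knockout and 15.69 in control libraries on the same scale, a difference of 0.39 (exact two-sided permutation test, p = 0.119). Without control library 4 the adipocyte difference was 0.51 (exact permutation p = 0.0317).

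Sucnr1, the targeted gene, measured 2.5 and 2.80 CPM in the rich knockout libraries 2 and 3, with 75.9, 47.9 and 39.9 CPM in the rich control libraries 2, 3 and 6. The poor knockout libraries 4, 5 and 6 reached 1.90, 3.51 and 4.51 CPM, and the poor control libraries 4 and 5 reached 63.3 and 75.0 CPM. The genotypes did not overlap in either class. The log2 fold change knockout minus control was -4.29 (SE 0.43) within the rich and -4.38 (SE 0.37) within the poor libraries.

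Adding the class to the genotype model gave the same called genes. With genotype alone 10 genes were called (0.0608% of those tested), and with the class in the model 10 were called (0.0608%), all 10 of them shared (edgeR quasi-likelihood test, Benjamini-Hochberg adjustment). At an unadjusted p under 0.05 the counts were 1667 (10.1%) without the class and 1552 (9.44%) with it. The common biological coefficient of variation was 0.412 with genotype alone and 0.326 with the class.

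All 10 genes had the same sign in both classes. Zfp949, a zinc finger gene, rose by 1.46 (SE 0.12) on the log2 scale within the rich and 1.38 (SE 0.12) within the poor libraries. Rpl29, a ribosomal protein gene with pseudogene copies that can share reads, changed by -1.88 (SE 0.22) and -1.74 (SE 0.21). Arntl, the clock activator, had the widest gap between the classes, at -1.13 (SE 0.19) within the rich and -1.77 (SE 0.18) within the poor libraries, with an interaction p of 0.0365 before and 0.9999 after adjustment (edgeR).

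Per3, a period gene of the clock, and Tef, a clock-controlled transcription factor, rose by 0.82 (SE 0.10) and 0.73 (SE 0.11) on the log2 scale within the rich libraries, and by 0.60 (SE 0.10) and 0.67 (SE 0.11) within the poor libraries. With the class in the model, the adjusted p of Per3 was 0.0121, against 0.0202 without it (edgeR). The adjusted p also fell for Sucnr1, Arntl, Ppm1m and Tef, and rose for Zfp949, Rpl29, Gsta4, Abhd14b and Adamts4. Gsta4, Abhd14b, Ppm1m and Adamts4 made up the rest of the 10.

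The test of the difference itself, an interaction of genotype and class, called 0 genes with edgeR (339 at an unadjusted p under 0.05, 2.06%; smallest adjusted p 0.9999). DESeq2 called 6 (0.0365%): Npas2, Mmrn1, Hbb-bt, Hbb-bs, Ddo and Drd1. Mmrn1 had an interaction log2 fold change of -22.88 there, far outside the 0.96 to 1.83 of the others. Its size was not examined further. With 2 or 3 libraries in each combination, a p that misses the threshold does not show that the genotype difference is alike in both classes.

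**Figure D5:**
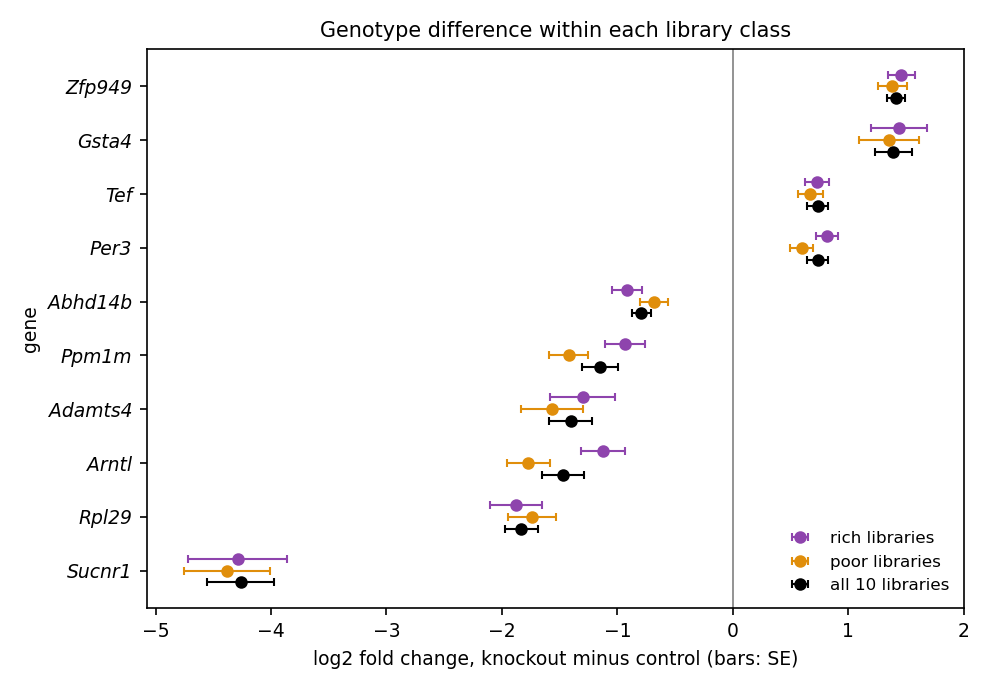
Log2 fold change knockout minus control (horizontal, bars are SE) of the 10 genes called between genotypes, within the 5 rich libraries, within the 5 poor libraries and over all 10 libraries. Each gene has the same sign in both classes, with Sucnr1 at -4.29 and -4.38 and Arntl at -1.13 and -1.77.

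DESeq2 called 213 genes between genotypes without the class (1.3%) and 219 with it (1.33%), and 161 were shared. Between rich and poor libraries DESeq2 called 5.45% of all tested genes higher and 1.77% lower. Of the 58 called only with the class in the model, 18 were also called between rich and poor libraries. Of the 52 called only without it, 5 were, and of the 161 shared, 8 were. The class calls come from the split that Crisp1 chose. The same class term separates the 2 genotype fits, so the overlaps are not independent of it and nothing is read from them.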

How the data were processed

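The authors deposited raw counts per Ensembl gene for total RNA libraries of 10 fat pads. STAR 2.5.2 and build mm10 are named in the submitters' processing notes. Which program counted reads, with what annotation and strand setting, is not given in the sources used here. Reads of overlapping or antisense genes may therefore be mixed. Per the labels' protocols, 300 ng of RNA entered a stranded kit.

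Columns were matched to samples by title and groups taken from the condition label. Symbols matched 25995 of 26040 identifiers; 2760 genes had no count. Coordinates come from GENCODE M21. No pair of libraries within a genotype agreed within sampling noise. Nothing states that libraries share no litter or batch, so p-values measure the spread between these samples.

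Levels are CPM of the column total. Folds are from edgeR 4.0.16 in R 4.3.3 (filterByExpr on the class, TMM, robust quasi-likelihood), with DESeq2 1.42.0 as an alternative. The fits were tested on simulated data. Genes and lists were chosen with earlier results of these data known. The rule for names took the markers, the called genes by fold and up to 4 genes per list by fold; all other named genes were chosen after their values were seen. Some genes of the lists are not reported here by name.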

Additional observations from a re-analysis of the deposited data

Results flagged for a closer look

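Of 46 groups of 5 libraries (23 list sums in each genotype), 20 held a library that stood apart by Dixon's test at 95%. For normally distributed values of 1 population, that test flags about 1 in 20 by chance. The sums were not on a log scale and each genotype mixed rich and poor libraries, so that rate need not hold here. The 20 repeat 5 libraries and are not independent, because several lists share genes or come from the same tissue.

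Knockout library 3 stood apart among knockouts for secretory (9255 CPM summed), initial segment (514 CPM), caput (1658 CPM), clear cell (125.5 CPM) and simple epithelial genes (1042 CPM), and for adipocyte identity genes, where it was lowest (57320 CPM). Control library 6 stood apart among controls for the same 5 epididymal and epithelial lists, at 25330, 1657, 5648, 288 and 2308 CPM. It also stood apart for chaperones (5470 CPM), germ cell genes (615 CPM) and Leydig and Sertoli cell genes (124 CPM), and was lowest for progenitor and fibroblast genes (9665 CPM).

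Control library 3 stood apart for smooth muscle (5285 CPM), vas deferens (7113 CPM) and seminal vesicle and prostate genes (152 CPM). Knockout library 4 stood apart for seminal vesicle and prostate genes (125 CPM) and knockout library 6 for liver genes (12990 CPM).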

How the results depend on the processing

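The counts of genes called between rich and poor libraries depended on the fit. The edgeR count was 0 higher and 0 lower, and 14 of 23 alternatives also gave 0 higher. The others, higher and lower, gave 67 and 2 with upper quartile scaling, 336 and 27 with no genotype term, 896 and 291 with DESeq2, 77 and 9 with libraries split by Lcn5, and 1090 and 399 with DESeq2 without control library 3. Leaving out 1 library gave 0 to 288 higher and 0 to 66 lower, above 0 without control library 2 (288 and 66), control library 6 (169 and 14) or knockout library 2 (150 and 1). Genotype calls (10 in each fit) became 213 and 219 with DESeq2 (111 and 140 without control library 3) and 4 and 4 without control library 3 and knockout library 6. Leaving out 1 library gave 3 to 18 in both fits. Sucnr1, Zfp949 and Rpl29 passed in all 19 alternatives without the class and all 23 with it. Interaction calls were 6 with DESeq2 and 4 with DESeq2 without control library 3, and 0 in the other 20 alternatives. Non-overlapping genes numbered 1523 higher and 347 lower without control library 3 and knockout library 6, 224 lower without control library 3 and 215 lower with TMM scaling. The adipocyte sum differed between genotypes by 0.25 to 0.51 when 1 library was left out. The Lcn5 split, both removals and the non-overlap alternatives were chosen after seeing the data; the causes were not tested.

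The numbers 2 to 6 occur in both genotypes. Same-numbered libraries correlated in their deviations from the genotype means at 0.377, -0.113, 0.632, 0.436 and -0.0961, and not every pair was above 0.1, so the numbers were not taken to pair the libraries. Libraries with the numbers 4 and 5 each correlated best with their own number. Class agreed between the genotypes in 4 of 5 numbers (2 and 3 rich, 4 and 5 poor), so with the replicate block the class difference rests on number 6 alone, knockout library 6 against control library 6. In that fit 403 genes were higher and 163 lower between classes, genotype calls were 4 without and 8 with the class, and interaction calls were 0. The smooth muscle median between classes was -0.49 and the adipocyte median -0.82 in it. The secretory difference was -2.12 (paired exact sign-flip permutation test, p = 0.375) and the adipocyte difference at 0.39 (p = 0.0625).

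Of 1541 gene values between classes under an alternative, 1451 moved by less than 1 SD and 12 had the other sign, among them Akr1b7 (-0.86), Actg2 (-1.003), Myh11 (-0.01) and Ptgs2 (-2.54) under the block and Cnn1 (-0.33), Actg2 (-0.75), Myh11 (-0.52), Ptgs2 (-0.68) and Slc28a3 (-0.45) under the Lcn5 split. Depth limits genes near 0.1 CPM, the level of 3 counts.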
